A study of Mus musculus with 2 samples.

Results

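The genes described here are those whose Gene Ontology (GO) terms in the deposited peak table place their product in the basolateral plasma membrane, after removal of genes that also carry a term for cell-cell junctions, actin binding or potassium ion transport. The rule gave 113 of 28944 genes in the table, and 396 of its 83549 peaks had one of them as the nearest annotated gene. The basolateral term alone was found on 142 genes, and the exclusions removed 29. GO terms were listed for 13687 genes, so the rule could reach only those. The set was chosen by its GO terms with its read counts within and beyond 1000 bp in both libraries already known, so its medians and counts describe these libraries and carry no test.

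Open chromatin was measured by ATAC-seq, in which the transposase Tn5 inserts adapters into accessible DNA and the reads pile up at open sites. The Wtap-CKO library came from pooled hearts of 6 mice with a cardiomyocyte-specific knockout of Wtap, and the Wtapflox/flox library from pooled hearts of 7 mice that carry the floxed allele. All mice were 4 days old, and both pools were whole hearts, in which the other heart cells of Wtap-CKO mice keep the gene. The sources used here give neither the driver of the deletion nor the deleted part of Wtap. Wtap encodes a partner of the RNA methyltransferase that writes N6-methyladenosine (m6A) in the nucleus, and the comparison asked how chromatin accessibility in the heart differed when it was deleted in cardiomyocytes.

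Epithelial cells sort membrane proteins to an apical face and a basolateral face, and the transporters on the basolateral face exchange solutes with the blood side. Most of these proteins are not limited to epithelia. Solute carriers for lactate, carnitine, taurine, creatine and amino acids also serve heart muscle, where they supply fuel and osmolytes, and bicarbonate transporters help to set intracellular pH. Receptors on the basolateral face bind hormones, nucleotides and neurotransmitters that arrive from the blood or from nerves.

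The Wtap-CKO library held 9816384 reads in peaks and the Wtapflox/flox library 9835753, with a median of 67 reads per peak in Wtap-CKO and 64 in Wtapflox/flox. With 1 library per genotype there was no replicate check, and every difference below is between these 2 libraries. Each ratio is Wtap-CKO over Wtapflox/flox on the log2 scale, from counts scaled to CPM of the reads in peaks with 0.5 CPM added, and its 95% interval covers counting error only. With the library totals behind the authors' RPM values instead, the ratio of counts was lower by about 0.22. A ratio of counts between 0 and about 0.22, taken before the 0.5 CPM was added, thus changed sign under that scaling. Its CPM values are smaller, so the added 0.5 CPM also drew weak ratios further towards 0. Among the 7 genes with the term for the RNA methyltransferase complex, 1 lay on chromosome 17, where the reference gene table places Wtap. Its promoter peak held 606 reads in the Wtap-CKO library and 651 in the Wtapflox/flox library, a log2 ratio of -0.10 (interval -0.26 to 0.06). A peak outside the deleted part checks nothing, so the genotypes were not checked by these data. The 35 genes with the sarcomere term all had a promoter peak, with a median log2 ratio of -0.17, which was the only check of the labelled tissue that the terms allowed. In bulk tissue, fewer cells of a type and less open chromatin per cell cannot be told apart.

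Promoters of the basolateral membrane genes were, in the middle of their range, less accessible in the Wtap-CKO library. Promoter signal was the summed reads of a gene's peaks that lay 1000 bp or less from a start, and 96 of the 113 genes had such a peak (150 peaks). Their summed promoter reads were 25896 in the Wtap-CKO library and 29046 in the Wtapflox/flox library, a log2 ratio of -0.16 (interval -0.19 to -0.14). The median gene had a log2 ratio of -0.20, the middle of the range ran from -0.42 to 0.03, and the extremes were -1.04 and 0.60. The ratio was below 0 for 68 genes (70.8%) and above 0 for 28. Over all 16298 genes with a promoter peak the median was -0.06, with 57.4% below 0 and 42.6% above. The counting interval lay wholly below 0 for 41 members (42.7%) and wholly above 0 for 5 (5.21%), against 23.5% below and 13.5% above over all genes. Per kilobase of peak, the median promoter level of members was 26.2 CPM in the Wtap-CKO library and 29.1 CPM in the Wtapflox/flox library.

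**Figure D1:**
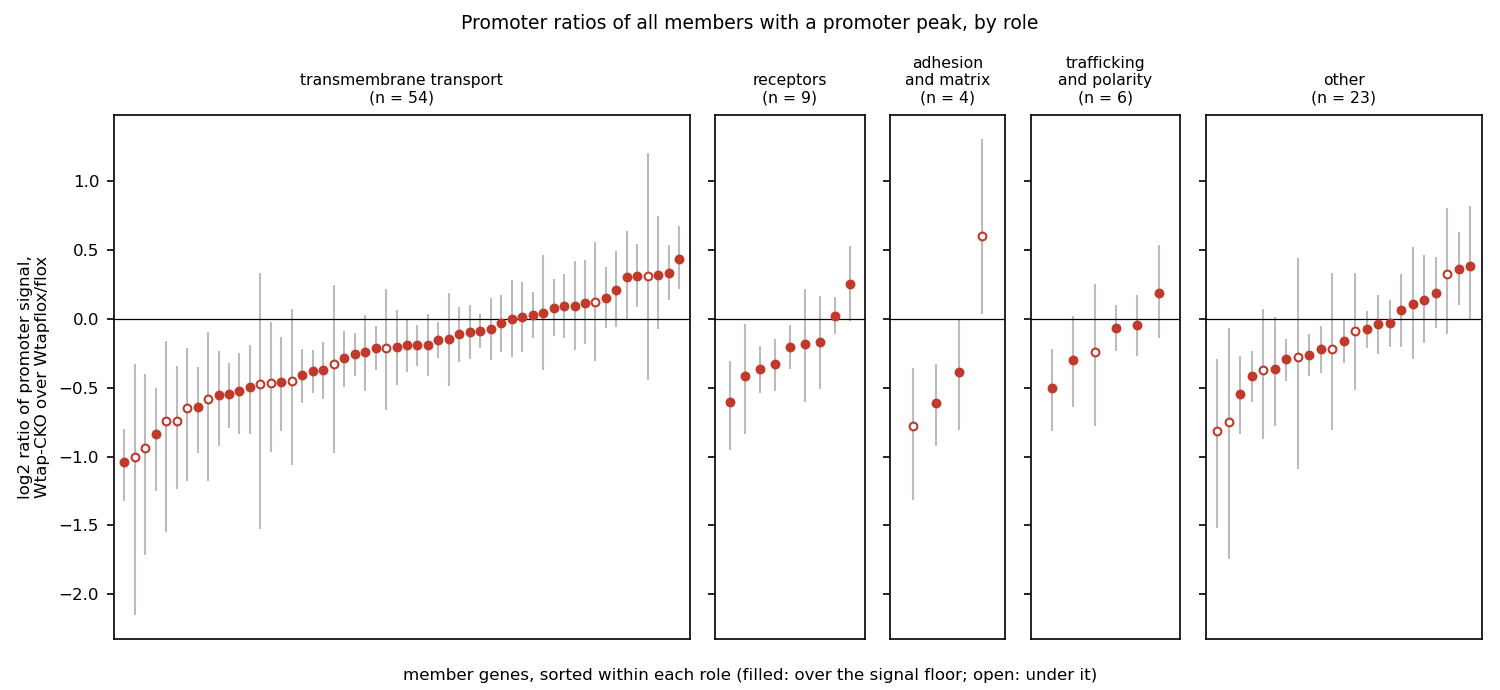
Log2 ratio of promoter signal (Wtap-CKO over Wtapflox/flox, vertical axis) of each of the 96 basolateral membrane genes with a promoter peak, sorted within its role, with 95% counting intervals as bars. Most points lie below the line at 0 among the 54 transport genes (median -0.20) and the 9 receptor genes (median -0.20).

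Large differences were rare. A signal floor at the 25th percentile of all genes (9.67 CPM, about 95 reads in each library) was met by 73 of the 96 promoters, and 23 lay under it. Over the floor, 1 member was at least 2-fold lower in the Wtap-CKO library and 0 were at least 2-fold higher, against 0.18% of 12223 genes lower and 0.196% higher. At 1.5-fold the counts were 5 lower and 0 higher, against 2.52% lower and 1.63% higher over all genes. The median of the 73 members over the floor was -0.16. By roles, promoter ratios were below 0 for 37 of 54 transport genes, 7 of 9 receptor genes, 3 of 4 adhesion genes, 5 of 6 trafficking genes and 16 of 23 other genes. The plot of promoter ratios by role shows that each of these groups holds genes on both sides of 0.

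The lower medians were shared in part by related sets. Genes with the basolateral term that the exclusions removed had a median promoter ratio of -0.15 (21 genes), genes with the apical but not the basolateral term -0.11 (122 genes), other plasma membrane genes -0.09 (1921 genes) and all genes with GO terms -0.06 (11494 genes). The interval lay below 0 for 42.9% of the removed basolateral genes, close to the 42.7% of members, and for 37.1% of the sarcomere genes, 28.7% of the apical genes and 25.9% of the other plasma membrane genes. Over the signal floor the members did not have the lowest median. It was -0.16 for the 73 members, -0.23 for 16 removed basolateral genes and -0.17 for 32 sarcomere genes. It was -0.11 for the apical genes, -0.09 for other plasma membrane genes and -0.06 for genes with GO terms. Whether the members differ from these sets was not tested. The 50 members that also carry the apical term did not stand out among the 113, with a median of -0.21 over 41 promoters, beside -0.19 over the 55 promoters of members without it. Split by quartile of promoter signal over all genes, members had medians of -0.45 in the weakest quartile (23 genes), -0.30 in the next (27 genes), 0.01 in the third (21 genes) and -0.19 in the strongest (25 genes). Genes with GO terms had medians between -0.09 and -0.03 in the same quartiles. In the strongest quartile, 22 of 25 members (88%) were below 0, against 66.7% of the genes with GO terms there. Some member promoters of the weakest quartile rested only on peaks that the authors called in Wtapflox/flox alone, which favours low ratios. Of member peaks within 1000 bp, 27 were called in Wtapflox/flox alone and 12 in Wtap-CKO alone. Over all peaks within 1000 bp, 3047 were called in Wtapflox/flox alone and 2046 in Wtap-CKO alone.

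**Figure D2:**
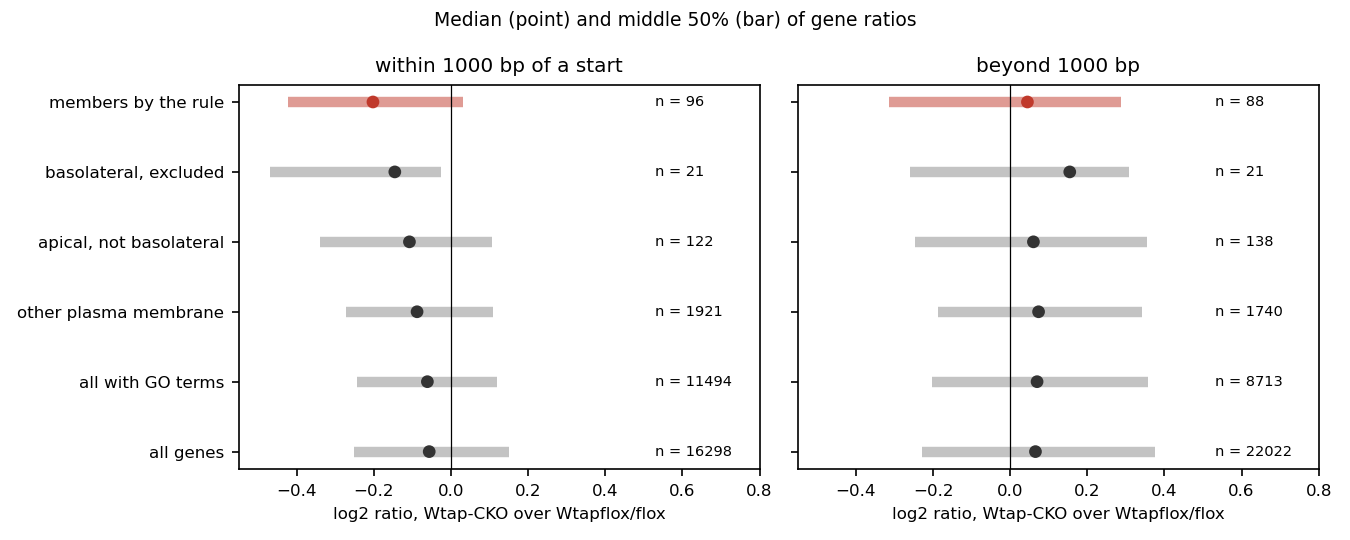
Median (point) and middle 50% (bar) of log2 ratios of gene signal, Wtap-CKO over Wtapflox/flox, within 1000 bp of a start (left) and beyond it (right), for the basolateral membrane genes and 5 other sets. No signal floor is applied. Within 1000 bp the members have the lowest median shown, -0.20, and beyond 1000 bp their median is 0.04, near that of all genes, 0.07. Over the floor, the removed basolateral genes have a lower promoter median (-0.23) than the members (-0.16).

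Amino acid transporters included the member with the lowest promoter ratio over the floor. This gene (ENSMUSG00000010064, chromosome 9) is annotated as a sodium-coupled transporter of glutamine, histidine, alanine and asparagine. Its 3 promoter peaks held 184 reads in the Wtap-CKO library and 384 in the Wtapflox/flox library, a log2 ratio of -1.04 (interval -1.32 to -0.80). Among the promoters over the floor, it was the only one past 2-fold. Each peak was lower in the Wtap-CKO library. The peak over the start (chr9:107544449-107544822, GRCm39) held 86 reads in Wtap-CKO hearts and 152 in Wtapflox/flox hearts (log2 ratio -0.78). The peak 284 bp inside the gene (chr9:107543973-107544289) held 31 in Wtap-CKO and 89 in Wtapflox/flox (-1.38). The peak 755 bp before a start (chr9:107547484-107547906) held 67 in Wtap-CKO and 143 in Wtapflox/flox (-1.04). The lower signal did not extend to its 1 peak beyond 1000 bp (chr9:107522819-107523093), which held 90 reads in Wtap-CKO hearts and 79 in Wtapflox/flox hearts, a log2 ratio of 0.18 whose interval spans 0 (-0.26 to 0.65).

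The other amino acid transporters were mostly closer to 0 at their promoters. Of the 9 members with an amino acid transport term, 7 were below 0 and 2 above, with a median of -0.21. Among all members with a promoter peak 70.8% were below 0, and among all genes 57.4%. A glycine symporter on chromosome 4 had 136 promoter reads in the Wtap-CKO library and 194 in the Wtapflox/flox library, a log2 ratio of -0.49 (interval -0.84 to -0.19). The heavy subunit of the amino acid exchangers (chromosome 19), which partners with several light chains, had the most promoter reads of any member, 987 in Wtap-CKO hearts and 1051 in Wtapflox/flox hearts, and a ratio of -0.09 (interval -0.21 to 0.04). A basic amino acid and ornithine exchanger on chromosome 8 lay on the other side, with 180 promoter reads in Wtap-CKO hearts and 145 in Wtapflox/flox hearts, a ratio of 0.31 whose interval just reaches 0 (-0.01 to 0.64). Beyond 1000 bp, where 7 of these genes had peaks, the median was 0.28 and 5 were above 0, against 55.7% of members and 56.4% of all genes. Over the floor there the median was 0.18. Their summed distal reads were 2684 in Wtap-CKO hearts and 2634 in Wtapflox/flox hearts, a log2 ratio of 0.03 whose interval spans 0 (-0.05 to 0.11).

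A pair of amino acid transporters showed opposite patterns outside their promoters. The arginine, lysine and ornithine transporter on chromosome 5 had 614 reads beyond 1000 bp in the Wtap-CKO library and 892 in the Wtapflox/flox library, over 10 peaks, a log2 ratio of -0.53 (interval -0.69 to -0.39). Its peak at chr5:148284927-148285358, 5388 bp before a start, held 92 reads in Wtap-CKO hearts and 228 in Wtapflox/flox hearts (-1.26), and the next one out, at chr5:148291325-148291789, held 43 in Wtap-CKO and 107 in Wtapflox/flox (-1.22). Its promoter was lower by less, with 603 reads in Wtap-CKO hearts and 700 in Wtapflox/flox hearts (-0.21). The start nearest to these distal peaks (chr5:148278670-148279857) had 305 reads in Wtap-CKO hearts and 432 in Wtapflox/flox hearts (-0.49), whereas the peak over another of its starts (chr5:148336552-148337154) had 173 in Wtap-CKO and 165 in Wtapflox/flox (0.07). The neutral amino acid and glutamine transporter on chromosome 15 held the member peak with the highest ratio over the peak floor of 3.92 CPM. That peak, in intron 2 of 15 (chr15:96515359-96515776), held 126 reads in Wtap-CKO hearts and 38 in Wtapflox/flox hearts, a log2 ratio of 1.61 (interval 1.20 to 2.30). Its 11 peaks beyond 1000 bp together held 1065 reads in Wtap-CKO hearts and 880 in Wtapflox/flox hearts (0.28, interval 0.15 to 0.41), and its promoter held 323 in Wtap-CKO and 340 in Wtapflox/flox (-0.07).

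Lactate transporters of the monocarboxylate class differed in direction. These carriers let lactate, a fuel of the heart, cross the membrane with a proton. The lactate transporter on chromosome 15 had 1 promoter peak (chr15:79135958-79136805) with 95 reads in the Wtap-CKO library and 174 in the Wtapflox/flox library, a log2 ratio of -0.84 (interval -1.25 to -0.50), the second lowest over the floor. The one on chromosome 3 had 337 in Wtap-CKO and 438 in Wtapflox/flox (-0.37, interval -0.58 to -0.17). The one on chromosome 11 was higher at its promoter, with 468 in Wtap-CKO and 371 in Wtapflox/flox (0.33, interval 0.14 to 0.54). Its single distal peak, 4044 bp into the gene (chr11:120850096-120850494), was lower, with 85 reads in Wtap-CKO hearts and 135 in Wtapflox/flox hearts (-0.64, interval -1.07 to -0.26). That distal peak too was called in Wtapflox/flox alone. A creatine transporter on chromosome 19 and a further carrier on chromosome 6 complete the group of 5 with a term for monocarboxylic acid transport. Creatine is the substrate of the phosphocreatine energy store. The carrier on chromosome 6 had 60 promoter reads in Wtap-CKO hearts and 97 in Wtapflox/flox hearts (-0.65, interval -1.18 to -0.21), under the floor. The creatine transporter had 142 promoter reads in Wtap-CKO hearts and 158 in Wtapflox/flox hearts (-0.15), and its distal peak 49 in Wtap-CKO and 78 in Wtapflox/flox (-0.62, interval -1.21 to -0.13). The carnitine transporter on chromosome 11, which supplies the carrier of fatty acids into mitochondria, was lower at both places. Its promoter had 603 reads in Wtap-CKO hearts and 788 in Wtapflox/flox hearts (-0.38, interval -0.54 to -0.23), and its distal peak 91 in Wtap-CKO and 136 in Wtapflox/flox (-0.55, interval -0.98 to -0.18).

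The taurine and ascorbate transporters were among the carriers with higher promoter signal in Wtap-CKO. Taurine is an abundant osmolyte of heart muscle, and its sodium-coupled transporter on chromosome 6 had 360 promoter reads in the Wtap-CKO library and 290 in the Wtapflox/flox library, a log2 ratio of 0.31 (interval 0.09 to 0.54). Its 8 peaks beyond 1000 bp held 1274 reads in Wtap-CKO hearts and 919 in Wtapflox/flox hearts (0.47, interval 0.35 to 0.60), and 7 of the 8 were above 0. The tallest, at chr6:91706065-91707299, held 523 in Wtap-CKO and 354 in Wtapflox/flox (0.56). It was the member with the most distal reads among those higher in Wtap-CKO. The sodium-coupled transporter of ascorbate (vitamin C) on chromosome 2 had the highest promoter ratio over the floor, with 375 reads in Wtap-CKO hearts and 276 in Wtapflox/flox hearts (0.44, interval 0.22 to 0.67). The 5 peaks behind that sum were not uniform. The peaks at chr2:131953134-131953607, with 142 reads in Wtap-CKO hearts and 71 in Wtapflox/flox hearts (0.96), and at chr2:131952735-131953018, with 72 in Wtap-CKO and 48 in Wtapflox/flox (0.54), were higher in Wtap-CKO. So was the one at chr2:131897471-131897763, with 42 in Wtap-CKO and 24 in Wtapflox/flox (0.70), and the remaining peaks had ratios of -0.20 and -0.08, with intervals that span 0. Its 2 distal peaks were lower, with 279 reads in Wtap-CKO hearts and 362 in Wtapflox/flox hearts (-0.37, interval -0.60 to -0.14).

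**Figure D3:**
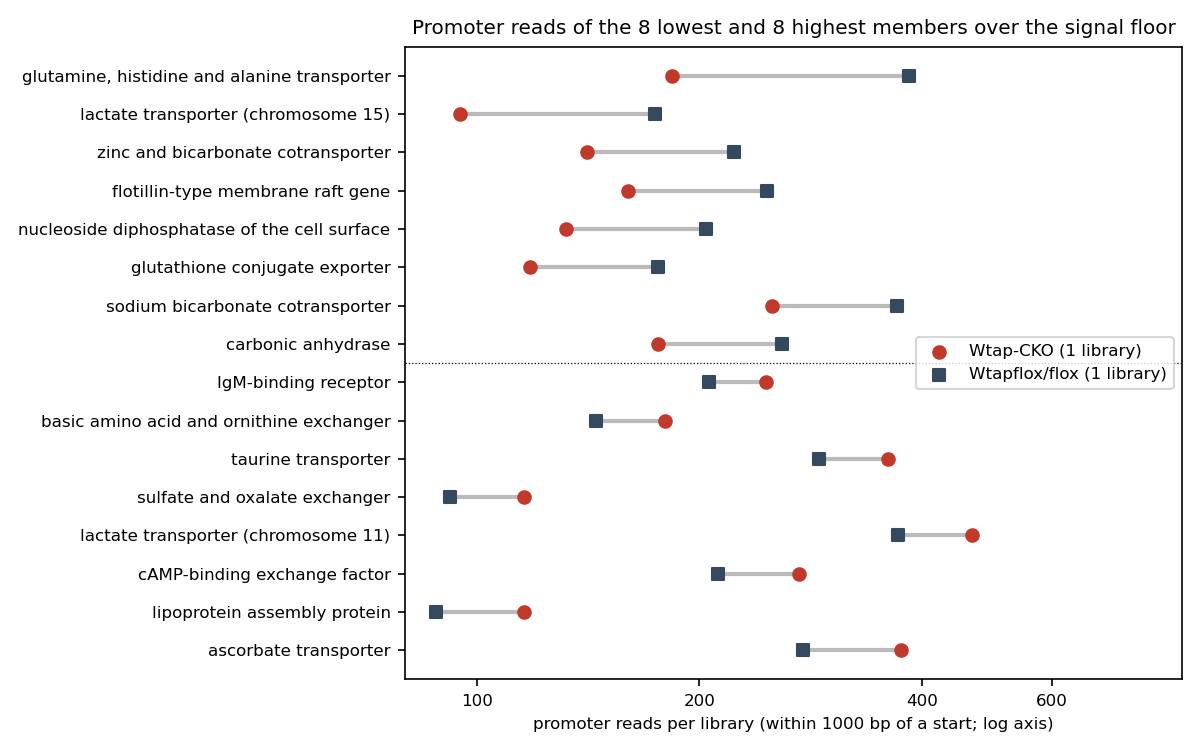
Promoter reads per library (log axis) of the 8 basolateral membrane genes with the lowest and the 8 with the highest promoter ratio over the signal floor, with Wtap-CKO as circles and Wtapflox/flox as squares. The widest gap is that of the glutamine, histidine and alanine transporter, with 184 reads in Wtap-CKO hearts and 384 in Wtapflox/flox hearts, and the gaps on the higher side are smaller.

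Carriers of bicarbonate, anions and metal ions were divided. Of the 8 bicarbonate transporters with a promoter peak, 4 were below 0 and 4 above. The interval lay wholly below 0 for 3 and wholly above 0 for 0. Ratios of 0.03, 0.04 and 0.12 among those above 0 lie in the range that changed sign under scaling by library totals. The zinc and bicarbonate cotransporter on chromosome 3, which also takes up manganese and iron, had 141 promoter reads in the Wtap-CKO library and 223 in the Wtapflox/flox library, a log2 ratio of -0.64 (interval -0.97 to -0.35). The sodium bicarbonate cotransporter on chromosome 5, which loads the cell with base, had 251 promoter reads in Wtap-CKO hearts and 370 in Wtapflox/flox hearts (-0.55, interval -0.79 to -0.32). It was also the member with the most reads beyond 1000 bp, 1429 in Wtap-CKO and 1629 in Wtapflox/flox over 17 peaks (-0.19, interval -0.29 to -0.08). Its tallest distal peak, at chr5:89077201-89078070, held 509 reads in each library. The carbonic anhydrase on chromosome 4, the enzyme that makes bicarbonate from carbon dioxide, had 176 promoter reads in Wtap-CKO hearts and 259 in Wtapflox/flox hearts (-0.54, interval -0.84 to -0.27). The sulfate, oxalate and bicarbonate exchanger on chromosome 10 went the other way at low depth, with 116 promoter reads in Wtap-CKO hearts and 92 in Wtapflox/flox hearts (0.32), an interval that spans 0 (-0.07 to 0.75). The anion exchanger on chromosome 5 was strong and near 0, with 915 in Wtap-CKO and 1021 in Wtapflox/flox (-0.15, interval -0.29 to -0.03). The metal ion carriers had a median promoter ratio of -0.10 over 7 genes. The magnesium transporter on chromosome 19 had 670 promoter reads in Wtap-CKO hearts and 767 in Wtapflox/flox hearts (-0.19, interval -0.34 to -0.04). Its 5 distal peaks were higher in Wtap-CKO, with 308 reads there and 209 in Wtapflox/flox (0.55, interval 0.30 to 0.82).

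Efflux pumps, nucleoside carriers and organic ion carriers were mostly below 0 at their promoters, as were 70.8% of members and 57.4% of all genes. Below 0 were 2 of 3 nucleoside carriers, 3 of 4 organic anion carriers and 2 of 3 organic cation carriers, these last 3 all under the floor. Of the 5 xenobiotic-exporting ATPases with a promoter peak, 4 were below 0, with a median of -0.41. The glutathione conjugate exporter on chromosome 16 had 118 promoter reads in the Wtap-CKO library and 176 in the Wtapflox/flox library, a log2 ratio of -0.55 (interval -0.92 to -0.23). Another member of this class on chromosome 16, a pump of organic anions and heme, had 376 in Wtap-CKO and 501 in Wtapflox/flox (-0.41, interval -0.61 to -0.22). The nucleoside transporter on chromosome 17, which carries adenosine and uridine, had uneven peaks. Its 6 promoter peaks summed to 635 reads in Wtap-CKO hearts and 781 in Wtapflox/flox hearts (-0.29, interval -0.45 to -0.14). Among them, the peak at chr17:45906394-45906631 held 60 in Wtap-CKO and 138 in Wtapflox/flox (-1.14), while the peak at chr17:45907939-45908349 held 222 in Wtap-CKO and 178 in Wtapflox/flox (0.31). The folate carriers, on chromosomes 10 and 11, were both slightly above 0, at 0.01 and 0.12, and both turned negative under scaling by library totals. A dicarboxylate and citrate transporter on chromosome 2 had a ratio of -1.0 but rested on 16 promoter reads in Wtap-CKO hearts and 37 in Wtapflox/flox hearts, under the floor.

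Receptor genes lay below 0 at their promoters more often than above. Of the 5 G-protein coupled receptors, 4 had a promoter peak and all 4 were below 0, with a median of -0.26. That is a small group beside the 70.8% of members and 57.4% of all genes below 0. The parathyroid hormone receptor on chromosome 9 had 93 promoter reads in the Wtap-CKO library and 126 in the Wtapflox/flox library (-0.42, interval -0.84 to -0.04). Its distal peak had 52 reads in Wtap-CKO hearts and 80 in Wtapflox/flox hearts (-0.57, interval -1.15 to -0.10). It was lower at both places. The thyroid-stimulating hormone receptor on chromosome 12 had 414 promoter reads in Wtap-CKO hearts and 523 in Wtapflox/flox hearts (-0.33, interval -0.52 to -0.15), and beyond 1000 bp 123 in Wtap-CKO and 159 in Wtapflox/flox (-0.36, interval -0.72 to -0.02). Its promoter peaks were uneven. The peak at chr12:91351018-91351468 held 255 in Wtap-CKO and 377 in Wtapflox/flox (-0.55). The peak at chr12:91367029-91367898 held 159 in Wtap-CKO and 146 in Wtapflox/flox (0.12, interval -0.21 to 0.46). A G-protein coupled acetylcholine receptor on chromosome 13, whose terms include the slowing of the heart rate by acetylcholine, differed in direction between places. Its promoter had 96 reads in Wtap-CKO hearts and 110 in Wtapflox/flox hearts (-0.18, interval -0.60 to 0.21), and its distal peaks 194 in Wtap-CKO and 154 in Wtapflox/flox (0.33, interval 0.02 to 0.65). The lowest promoter in the receptor list was that of a nucleoside diphosphatase of the cell surface on chromosome 19, which degrades extracellular nucleotides and is listed here through a receptor signalling term. It had 132 promoter reads in Wtap-CKO hearts and 204 in Wtapflox/flox hearts (-0.61, interval -0.95 to -0.30). The highest was an IgM-binding receptor of transcytosis on chromosome 11, with 246 in Wtap-CKO and 206 in Wtapflox/flox (0.25, interval -0.01 to 0.53), and beyond 1000 bp with 251 in Wtap-CKO and 153 in Wtapflox/flox (0.70, interval 0.42 to 1.02). The other promoter above 0 in the receptor list was that of an AP-2 clathrin adaptor subunit on chromosome 7, which gathers cargo for endocytosis. It had nearly equal counts, 925 in Wtap-CKO and 912 in Wtapflox/flox (0.02, interval -0.11 to 0.16), and only 1 member had more promoter reads in the Wtap-CKO library.

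Adhesion, trafficking and other members had promoters on both sides of 0. A flotillin-type gene on chromosome 11, whose product organises membrane rafts, had 160 promoter reads in the Wtap-CKO library and 247 in the Wtapflox/flox library (-0.61, interval -0.92 to -0.33). Its only distal peak held 433 in Wtap-CKO and 397 in Wtapflox/flox (0.13). Among trafficking genes, a GTPase of recycling endosomes on chromosome 1 was the lowest, with 163 promoter reads in Wtap-CKO hearts and 233 in Wtapflox/flox hearts (-0.50, interval -0.81 to -0.22). A scaffold gene of synapses and junctions on chromosome 7 had the highest trafficking ratio, 0.19, on 159 reads in Wtap-CKO hearts and 139 in Wtapflox/flox hearts, with an interval that spans 0 (-0.14 to 0.54). Of the remaining genes, a cAMP-binding exchange factor on chromosome 2 had 273 promoter reads in Wtap-CKO hearts and 212 in Wtapflox/flox hearts (0.36, interval 0.10 to 0.63). A lipoprotein assembly protein on chromosome 3 had 116 in Wtap-CKO and 88 in Wtapflox/flox (0.38, interval -0.01 to 0.82). The insulin-degrading peptidase on chromosome 19 was strong and near 0, with 861 in Wtap-CKO and 909 in Wtapflox/flox (-0.08, interval -0.21 to 0.06).

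Away from promoters the basolateral membrane genes were centred near 0. Peaks beyond 1000 bp were assigned to the gene with the nearest start and may belong to other genes. Such peaks were present for 88 members (246 peaks), with summed reads of 19949 in the Wtap-CKO library and 20149 in the Wtapflox/flox library (log2 ratio -0.01, interval -0.04 to 0.02). The median gene ratio was 0.04, with a middle range from -0.31 to 0.29 and extremes of -1.23 and 1.43, and 49 members were above 0 and 39 below. All 22022 genes with such peaks had a median of 0.07, with 56.4% above 0 and 43.6% below. The interval lay above 0 for 21 members (23.9%) and below 0 for 17 (19.3%), against 26.5% and 16.6% of all genes. Under scaling by library totals the median of members turned to -0.15. By roles the medians were 0.01 for transport (47 genes), 0.09 for receptors (9), -0.48 for adhesion (5), 0.15 for trafficking (6) and 0.06 for the others (21), and all but that of adhesion changed sign under that scaling. Above a floor of 5.10 CPM, met by 72 members, 2 members reached 2-fold on the higher side in Wtap-CKO and 0 on the lower side, against 2.19% and 0.569% of 16516 genes. At 1.5-fold the counts were 3 higher and 3 lower, against 9.86% and 4.77%.

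Those 2 members had weak distal signal in 1 peak each. A gene annotated as a regulator of chloride channels (ENSMUSG00000025418, chromosome 4) had 83 reads in the Wtap-CKO library and 35 in the Wtapflox/flox library at its only peak (chr4:106347747-106348139, 1341 bp into the gene), a log2 ratio of 1.14 (interval 0.66 to 1.86). A regulator of complement, which shields cells from complement attack (ENSMUSG00000016481, chromosome 1), had 87 in Wtap-CKO and 38 in Wtapflox/flox at chr1:194782980-194783520, in intron 9 of 9 of the annotated transcript (1.10, interval 0.63 to 1.79). Its promoter did not differ in the same way, with 362 reads in Wtap-CKO hearts and 373 in Wtapflox/flox hearts (-0.04). Further members high beyond 1000 bp without a promoter peak were a V1 subunit of the proton pump on chromosome 6, with 95 reads in Wtap-CKO hearts and 64 in Wtapflox/flox hearts (0.54, interval 0.10 to 1.05), and a membrane serine peptidase on chromosome 9, with 141 in Wtap-CKO and 98 in Wtapflox/flox (0.51, interval 0.15 to 0.91). Single peaks past 2-fold on the higher side also lay near a kinase gene annotated to heart morphogenesis on chromosome 18 (chr18:65532906-65533329), with 125 reads in Wtap-CKO hearts and 56 in Wtapflox/flox hearts (1.10, interval 0.70 to 1.64). Another lay near an adhesion gene of retina layers on chromosome 9 (chr9:64610234-64610566), with 65 in Wtap-CKO and 28 in Wtapflox/flox (1.09, interval 0.56 to 1.91). The authors called this peak, the chloride channel regulator peak and the proton pump peaks in Wtap-CKO alone, and also the weaker serine peptidase peak. Such peaks entered through the library in which they are high, which favours high ratios. The complement regulator and kinase peaks were called in both libraries.

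The lowest distal ratio over the floor was that of a calcium-dependent adhesion molecule on chromosome 8 (ENSMUSG00000031881), which binds its own kind on neighbouring cells. Its 5 peaks beyond 1000 bp held 1033 reads in the Wtap-CKO library and 1748 in the Wtapflox/flox library, a log2 ratio of -0.75 (interval -0.87 to -0.64). Every one of the 5 was below 0. The lowest, at chr8:105335888-105336260 and 3636 bp into the gene, held 164 in Wtap-CKO and 398 in Wtapflox/flox (-1.25). The other peaks inside the gene were also lower in Wtap-CKO. The peak at chr8:105336806-105337276 held 296 in Wtap-CKO and 434 in Wtapflox/flox, the one at chr8:105334595-105335005 held 211 in Wtap-CKO hearts and 368 in Wtapflox/flox hearts, and the one at chr8:105329183-105329771 held 282 in Wtap-CKO and 440 in Wtapflox/flox. The promoter peak was weaker and lower by less, with 95 in Wtap-CKO and 126 in Wtapflox/flox (-0.39, interval -0.80 to -0.01). The lower signal was not limited to this gene. An unbroken stretch of 13 neighbouring peaks with ratios below 0 (chr8:105297102-105360294) held peaks of 5 genes, 7 of the peaks assigned to genes other than the adhesion molecule, and summed to 1871 reads in Wtap-CKO hearts and 2985 in Wtapflox/flox hearts (-0.67, interval -0.76 to -0.59). A stretch of the opposite sign ran past the taurine transporter, with 16 neighbouring peaks above 0 (chr6:91594228-91696720), 11 of them assigned to other genes, and 1977 reads in Wtap-CKO hearts and 1319 in Wtapflox/flox hearts (0.59, interval 0.49 to 0.69). Both stretches were extended outward after the values were seen and are given as descriptions.

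**Figure D4:**
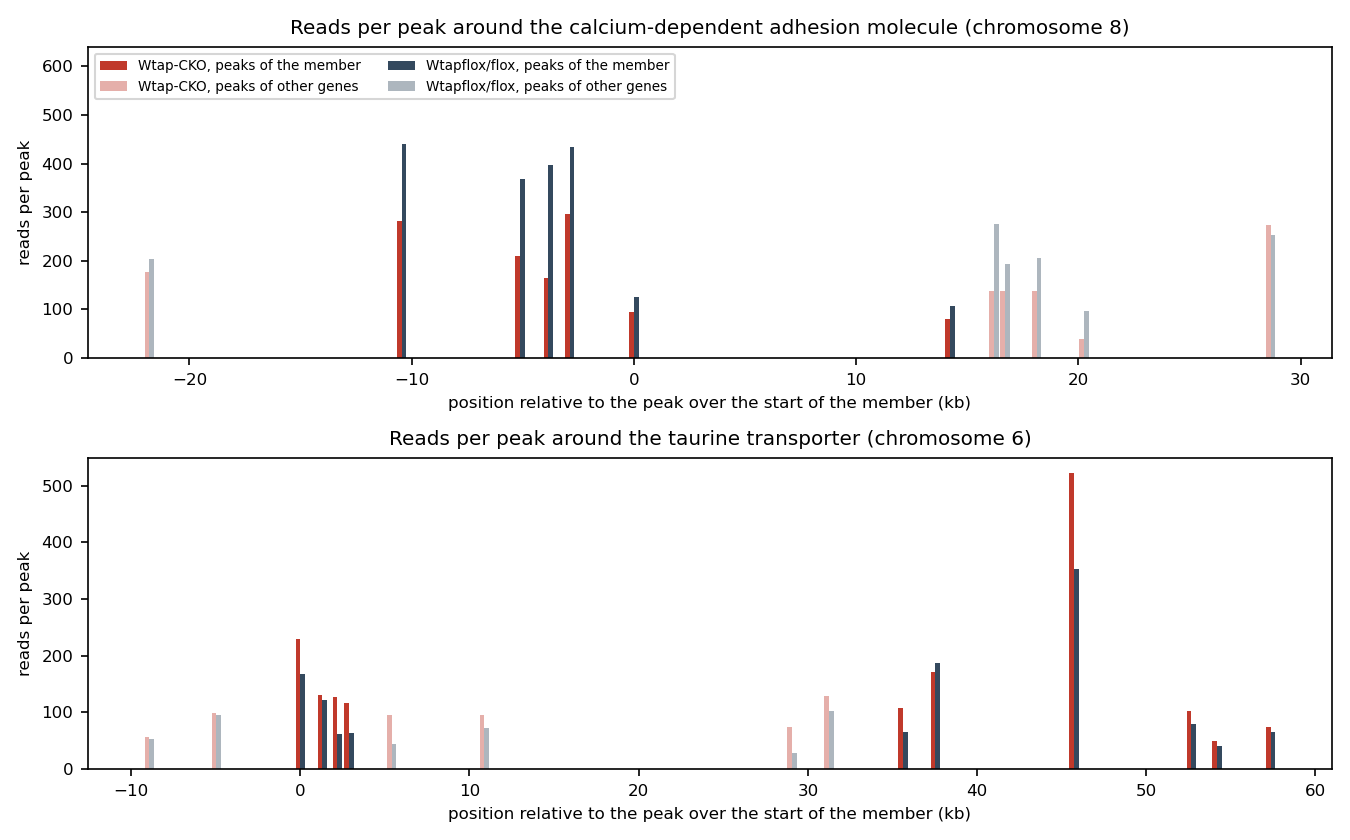
Reads per peak in Wtap-CKO (left bar of each pair) and Wtapflox/flox (right bar) by distance in kb from the peak over the member's start, around the adhesion molecule of chromosome 8 (top) and the taurine transporter of chromosome 6 (bottom), with peaks assigned to other genes in pale colours. All 6 peaks of the adhesion molecule are lower in Wtap-CKO, and the tallest taurine transporter peak has 523 reads in Wtap-CKO hearts and 354 in Wtapflox/flox hearts.

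Promoter and distal signal of the same member could differ in sign. Both kinds of peak were present for 71 members, 25 had promoter peaks only and 17 distal peaks only. The promoter was below 0 and the distal sum above 0 for 30 of the 71, both were below 0 for 21, both above 0 for 12, and the promoter above 0 with the distal sum below 0 for 8. These combinations were not counted over all genes, so they describe the members only. Over all genes too, promoters leaned below 0 (57.4%) and distal sums above 0 (56.4%). The distal ratio exceeded the promoter ratio in 50 of 71 members (70.4%), against 62% of 9376 genes with both kinds, and the median of distal minus promoter ratio was 0.25 in members and 0.15 over all genes. No member over both floors lay past 1.5-fold in opposite directions at the 2 places. The nearest cases were the lactate transporter on chromosome 11, at 0.33 and -0.64, and the ascorbate transporter, at 0.44 and -0.37 (promoter, then distal), chosen after their values were seen.

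**Figure D5:**
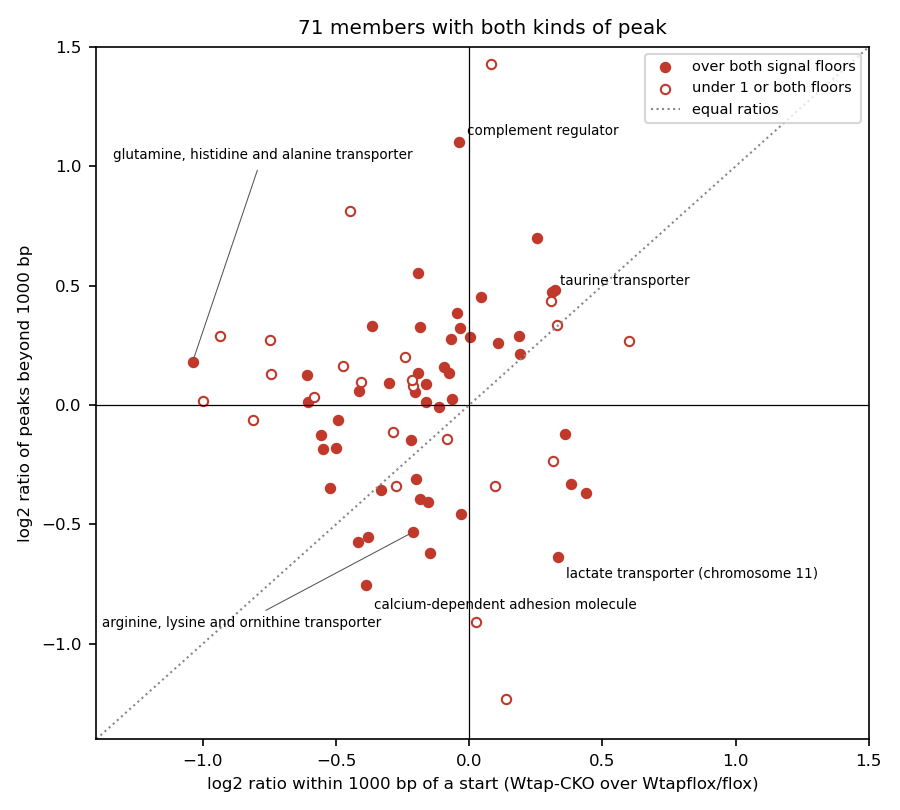
Log2 ratio (Wtap-CKO over Wtapflox/flox) of signal within 1000 bp of a start (horizontal axis) against signal beyond 1000 bp (vertical axis) for the 71 basolateral membrane genes with both kinds of peak, filled where both are over their signal floors. 50 of the 71 points lie above the line of equal ratios, and 30 lie at the upper left, with the promoter below 0 and the distal sum above 0.

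By single peaks, the members held a larger share of promoter peaks than the table as a whole, as did all genes with GO terms. Of their 396 peaks, 150 (37.9%) lay within 1000 bp of a start and 246 beyond, against 27.3% of all peaks within. Genes with GO terms, from which the members are drawn, had a similar balance, with 16462 peaks within 1000 bp and 27601 beyond. Within 1000 bp their median ratio was -0.19 (all peaks -0.06), between 1000 and 3000 bp 0.02, between 3000 and 10000 bp -0.10 (all peaks 0.05) and between 10000 and 100000 bp 0.08. Over the peak floor (314 peaks), 6 (1.91%) reached 2-fold on the higher side in Wtap-CKO and 6 (1.91%) on the lower side, against 3.5% and 1.45% of all 62662 peaks. At 1.5-fold the counts were 28 higher and 41 lower, against 12.3% and 8.28%. The authors' peak calls marked 251 of the 396 (63.4%) in each of the libraries, 59 in Wtap-CKO alone and 86 in Wtapflox/flox alone. Over all 83549 peaks, 61.2% were called in both, 14710 in Wtap-CKO alone and 17718 in Wtapflox/flox alone, so calls in Wtapflox/flox alone were the more common there too. The 1000 bp border fell between peaks of like depth. The farthest peaks inside, both 982 bp from a start, held 47 reads in Wtap-CKO hearts and 30 in Wtapflox/flox hearts (chr14:70547458-70547707) and 44 in Wtap-CKO and 36 in Wtapflox/flox (chr19:9977812-9978015). The nearest outside held 38 in Wtap-CKO and 44 in Wtapflox/flox (chr10:39953654-39953853) and 32 in Wtap-CKO and 47 in Wtapflox/flox (chr2:61878057-61878343).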

How the data were processed

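The authors deposited 1 table of 83549 merged ATAC-seq peaks. The deposited counts are raw whole numbers of reads in each peak. From the values, the authors' RPM is the count, raised by 1 read, times a constant of the library. The deposited fold enrichment and log2 fold change of the authors follow from the RPM and were not used. The tools in the submitters' processing notes are MACS2 2.1.0, BWA 0.7.12, ChIPseeker, fastp 0.20.0 and HOMER 4.11, with GRCm39 as the build. The sources used here do not give their roles, the Tn5 offset or the handling of duplicates, and duplicates that were kept would make the counting intervals too narrow.

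Genes were taken from the table's nearest-start annotation and GO terms. The terms of 1784 genes are not analysed here, and 13473 genes were listed without terms. The reference gene table is of another build and holds 0 Ensembl IDs, so genes are described by their GO terms and positions, with coordinates in GRCm39.

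Counts were divided by the reads in all peaks of the library and scaled to CPM, and 0.5 CPM was added before the log2 ratio, which draws weak ratios towards 0. Intervals are exact conditional binomial (Clopper-Pearson) 95% intervals of the raw counts. Floors were the 25th percentile of mean CPM over all genes or peaks: 9.67 CPM within 1000 bp (about 95 reads), 5.10 beyond it (about 50.1 reads) and 3.92 for peaks (about 38.5 reads). Libraries were grouped by the labels' genotype, and with 1 library per genotype there is no test and no p-value. The script that computes ratios was tested on simulated data.

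The members, role lists, families and alternatives were chosen with earlier results of these data known. Genes named are members over the floor with the 8 highest and 8 lowest promoter ratios, the 6 highest and 6 lowest ratios beyond 1000 bp, the 5 highest and 5 lowest peaks, the 5 with most reads at each place and the extremes of each role list. Other members named, as examples of families, were chosen after their values were seen. Python 3.11.15, numpy 2.4.6, pandas 2.3.3, scipy 1.17.1 and matplotlib 3.10.9 were used. The alternatives tried were pseudocounts of 0.1 and 2 CPM, other library totals, centring, other floors, a 1.5-fold rule, a window of 3000 bp, the nearest peak only, peaks called in both libraries and no exclusions.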

Additional observations from a re-analysis of the deposited data

How the results depend on the processing

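No paired analysis was possible because each genotype has 1 library, and for the same reason no library could be left out. The differences carry no replicate error, so a difference between pools of mice or library preparations cannot be told apart from one between genotypes. The median promoter ratio of members was below 0 under every alternative tried. It was -0.35 with the library totals behind the authors' RPM and -0.15 with a window of 3000 bp, against -0.20 as reported. The median beyond 1000 bp was -0.15 with those totals, against 0.04. The 1 promoter at least 2-fold lower became 0 with the nearest peak only, with peaks called in both libraries or with 2 CPM added, 2 with no floor and 5 at 1.5-fold. The 2 members at least 2-fold higher beyond 1000 bp became 0 with a floor at the median, library totals, peaks called in both libraries or 2 CPM added, and 1 with a window of 3000 bp. The 0 lower beyond 1000 bp became 3 with no floor and 3 at 1.5-fold. The 6 higher peaks became 2 with a floor at the median, 1 with library totals, 2 with peaks called in both libraries, 1 with 2 CPM added, 15 with no floor and 28 at 1.5-fold. The 6 lower peaks became 3 with peaks called in both libraries, 12 with no floor and 41 at 1.5-fold. The library totals lower the ratio of counts by construction and give the added 0.5 CPM more weight, which draws weak ratios towards 0. A higher floor or fewer peaks leave fewer features to count. Of 63 named values, 54 kept their sign under every alternative and 58 under all but the library totals. Those that did not keep it included promoters over the floor. The AP-2 clathrin adaptor subunit (0.02) reached -0.19, and the nucleoside transporter on chromosome 17 (-0.29) reached 0.31. Why these values changed sign was not tested. By promoter signal, 23 of 96 members fell under the floor.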

Other observations

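Some members lie beside each other on a chromosome, and such neighbours did not always share a direction. Organic cation carriers on chromosome 17 lay 20381 bp apart (chr17:12803019-12894583). The one with a promoter peak had 69 promoter reads in the Wtap-CKO library and 119 in the Wtapflox/flox library, a log2 ratio of -0.74 (interval -1.23 to -0.34), and beyond 1000 bp 199 in Wtap-CKO and 182 in Wtapflox/flox (0.13, interval -0.17 to 0.43). Its neighbour had 167 reads in Wtap-CKO hearts and 229 in Wtapflox/flox hearts beyond 1000 bp (-0.44, interval -0.75 to -0.16). Xenobiotic-exporting ATPase genes on chromosome 11 lay 29789 bp apart (chr11:109823016-109986804). The one annotated to cholesterol efflux had 126 promoter reads in Wtap-CKO hearts and 175 in Wtapflox/flox hearts (-0.46, interval -0.81 to -0.13). Its neighbour had 24 in Wtap-CKO and 32 in Wtapflox/flox at its only distal signal (-0.35), with an interval that spans 0 (-1.24 to 0.40). These pairs were noticed after the values were seen. A member of the same pump class on chromosome 17, annotated to leukotriene transport, had the highest distal ratio of any member but lay under the floor, with 54 reads in Wtap-CKO hearts and 17 in Wtapflox/flox hearts (1.43, interval 0.86 to 2.55).

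Further members had a lower sum in the Wtap-CKO library at the promoter or beyond it. A coreceptor of BMP signalling annotated to iron homeostasis, on chromosome 3, had 15 distal reads in Wtap-CKO hearts and 42 in Wtapflox/flox hearts (-1.23, interval -2.44 to -0.60), under the floor, while its promoter had 173 in Wtap-CKO and 157 in Wtapflox/flox (0.14, interval -0.18 to 0.46). A bile acid transporter on chromosome 16 was lower at its promoter, with 165 reads in Wtap-CKO hearts and 240 in Wtapflox/flox hearts (-0.52, interval -0.83 to -0.25). A store-operated calcium channel gene on chromosome 5 had 617 promoter reads in Wtap-CKO hearts and 738 in Wtapflox/flox hearts (-0.25, interval -0.41 to -0.10), and a carrier of thyroid hormone on chromosome 10 had 445 distal reads in Wtap-CKO hearts and 588 in Wtapflox/flox hearts (-0.40, interval -0.58 to -0.22).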
